A study of Arabidopsis thaliana with 35 samples.

Results

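The libraries compared here hold poly(A) RNA of mature pollen from 2 Arabidopsis thaliana mutants, sln and mbd5 mbd6. The 5 sln and 5 mbd5 mbd6 libraries were chosen by their titles, 10 of 35 libraries in 7 genotypes, and all features counted in them were used. Libraries of acd15.5, acd21.4, acd15.5 acd21.4 and acd15.5 acd21.4 sln pollen are quoted for a few transcripts, and 5 wild-type libraries gave the level that each mutant was set against. All genotypes are in the Col0 ecotype. Each had 2 libraries in batch 1 and 3 in batch 2, as the labels name them. The alleles and the age of the plants are stated nowhere in the labels. The names of the deposited tables mark the mbd5 mbd6 libraries of batch 2 differently from those of batch 1, and the labels do not say whether these are the same line. If they are not, line and batch cannot be told apart within mbd5 mbd6. Nothing says that replicates came from separate plants, so p-values measure only the spread between these libraries, which may be technical.

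MBD5 and MBD6 are methyl-CpG-binding domain proteins, which bind DNA carrying methylated cytosine in the CG context. SLN (SILENZIO) is a J-domain protein, a kind of co-chaperone that works with HSP70. In Arabidopsis MBD5 and MBD6 recruit SLN to methylated loci and keep a set of genes and transposable elements silent, and ACD15.5 and ACD21.4 are alpha-crystallin-domain proteins of the same complex. A pollen grain holds a large vegetative cell, which forms the pollen tube and carries the sperm cells. Setting sln against mbd5 mbd6 asks which transcripts depend on the methyl-binding proteins but not on the J-domain protein, and the reverse.

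Because MBD5 and MBD6 recognise methylated CG, the bases upstream of 3 genes that carry the comparison are shown, with each CG in capitals. Each line gives the 250 bases before the annotated start in RefSeq (TAIR10.1), 5′ to 3′ on the strand of the gene. AT1G67750 encodes a pectate lyase family protein (chr1:25401264-25401513, plus strand), SYP122 a plasma membrane syntaxin (chr3:19427231-19427480, minus strand) and ACS6 an enzyme that makes the ethylene precursor ACC (chr4:6863729-6863978, plus strand).
AT1G67750: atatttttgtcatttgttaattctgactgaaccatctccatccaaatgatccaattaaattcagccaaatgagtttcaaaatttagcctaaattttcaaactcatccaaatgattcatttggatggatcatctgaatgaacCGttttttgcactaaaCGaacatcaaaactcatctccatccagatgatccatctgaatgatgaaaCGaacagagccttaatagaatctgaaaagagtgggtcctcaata
SYP122: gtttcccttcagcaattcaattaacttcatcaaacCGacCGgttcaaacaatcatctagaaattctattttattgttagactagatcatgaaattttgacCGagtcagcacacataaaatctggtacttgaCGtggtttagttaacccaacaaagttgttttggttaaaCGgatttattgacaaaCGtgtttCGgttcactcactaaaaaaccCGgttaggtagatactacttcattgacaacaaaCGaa
ACS6: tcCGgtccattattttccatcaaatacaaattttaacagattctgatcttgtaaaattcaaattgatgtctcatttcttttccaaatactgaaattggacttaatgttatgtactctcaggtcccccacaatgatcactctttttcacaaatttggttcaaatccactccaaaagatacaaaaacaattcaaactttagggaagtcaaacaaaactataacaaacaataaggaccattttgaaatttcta
The motif searched was CG, which reads the same on both strands. The AT1G67750 window held 3, the SYP122 window 9 and the ACS6 window 1. Of 6511 such windows of tested protein-coding genes that lie outside annotated genes, 96% held at least 1 CG, with a median of 5. As many CG or more were in 77% of windows for AT1G67750, 16.9% for SYP122 and 96% for ACS6. Methylation of these bases was not analysed here.

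The targeted genes were read first. AT5G37380, the gene of SLN (TAIR10.1 chromosome 5, 14816734 to 14819346), had 0.328, 0, 0.509, 0.135 and 0.324 counts per 1000000 (CPM, after scaling of the libraries) in the sln libraries, against 4.15, 4.11, 4.13, 3.83 and 3.47 CPM in the mbd5 mbd6 libraries and 4.23 to 4.86 CPM in the wild-type libraries. All sln libraries lay below all mbd5 mbd6 libraries, with a log2 difference of -3.79 ± 0.23 (SE, edgeR adjusted p = 5.99e-17). MBD6 had 68 counts over the sln libraries and 2 over the mbd5 mbd6 libraries, a ratio of 26.5 (95% counting interval 7.07 to 223), against 55 counts in wild-type. MBD5 had 9 counts in sln, 3 in mbd5 mbd6 and 6 in wild-type libraries, which is too few to compare. Counting intervals cover counting error only.

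Total counts were 13167806 to 22208090 in sln, 10416059 to 16756573 in mbd5 mbd6 and 12421593 to 15068798 in wild-type libraries. Summed over 12 vegetative cell markers, none of them at 0, levels were 17800 to 28800 CPM in sln, 22800 to 30700 in mbd5 mbd6 and 23800 to 29800 in wild-type libraries. The 8 sperm cell markers used, none at 0, summed to 751 to 888, 869 to 991 and 837 to 891 CPM in the same order. Tapetum markers summed to at most 0.473 CPM, with 4 of 7 at 0 in sln and 3 of 7 in mbd5 mbd6 and in wild-type. The first principal component held 27.8% of the variance among the 10 libraries and put the sln libraries between -17.3 and -5.74 and 4 mbd5 mbd6 libraries between 9.83 and 19.1. Library 1 of mbd5 mbd6 stood apart at -5.31. With all libraries 155 features were higher and 249 lower in sln, and without that library 183 and 293. The counts fell to 75 and 133 without sln library 5, the deepest, and to 77 and 144 without mbd5 mbd6 library 3. Library 5 of sln also had the largest TMM scaling factor, 1.253. The factors of the other sln, mbd5 mbd6 and wild-type libraries were 0.9208 to 1.084.

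Of 12106 features tested, 155 were higher in sln than in mbd5 mbd6 pollen (1.28% of those tested) and 249 lower (2.06%), by edgeR's quasi-likelihood test with batch as a term and a p under 0.05 after Benjamini-Hochberg adjustment across every feature tested. The difference was at least 2-fold for 30 of the higher and 63 of the lower features. All sln libraries lay above all mbd5 mbd6 libraries for 77 of the 155 and below them for 143 of the 249. The split depended on the scaling. With total counts in place of TMM factors, 439 were higher and 110 lower, and the median log2 difference of all features was 0.127, against 0.0133 with TMM and 0.00119 with DESeq2 size factors.

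**Figure D1:**
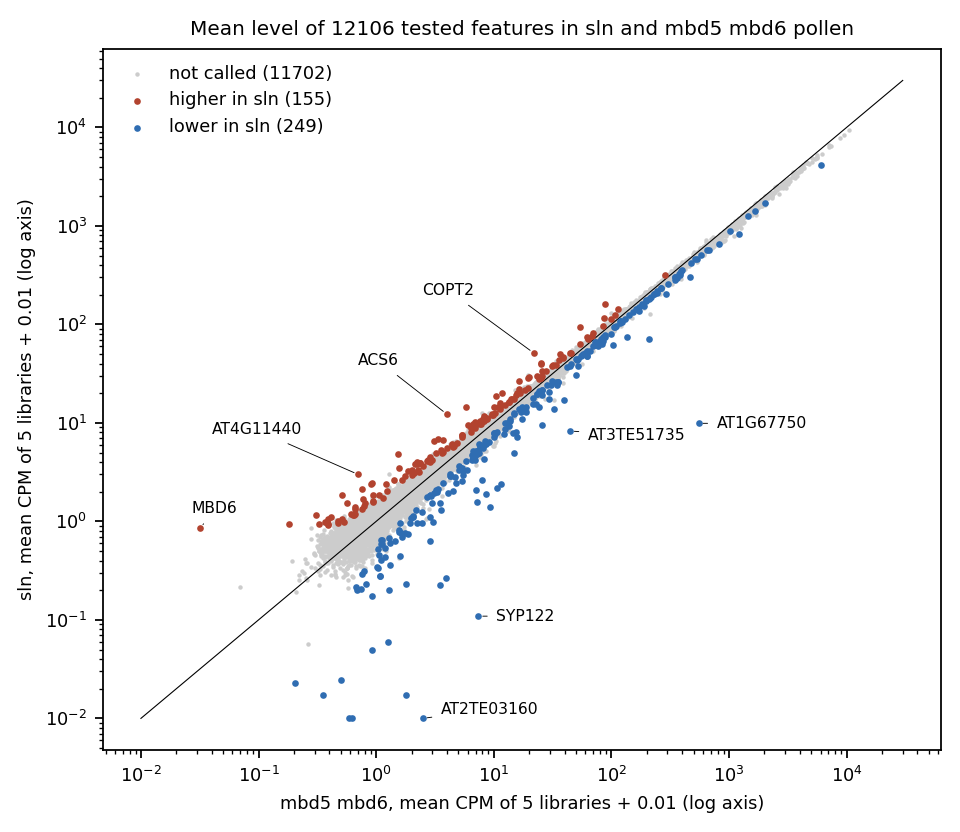
Mean CPM plus 0.01 of each tested feature in sln (vertical, log axis) against mbd5 mbd6 (horizontal, log axis); red points were higher in sln (155), blue points lower (249) and grey points not called, and the line marks equality. SYP122 (0.0991 against 7.38 CPM) and AT1G67750 (9.89 against 553 CPM) lie far below the line, and MBD6 (0.842 against 0.0221 CPM) far above it.

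Transposable elements made up more of the lower than of the higher features. Of 23488 elements listed, 258 passed the count filter. Of these 258, 30 were lower in sln than in mbd5 mbd6 pollen (11.6%) and 7 higher (2.71%). Of 9849 protein-coding genes tested, out of 27008 listed, 127 were lower (1.29%) and 117 higher (1.19%). A feature could pass the filter through a single genotype where it was high, so these shares hold for tested features only. Of 1219 noncoding transcripts that the deposited tables add to the annotation, 50 were lower (4.1%) and 13 higher (1.07%), and of 153 pseudogenes 11 were lower and 7 higher. With total counts as the scaling, 19 elements were lower and 14 higher, 44 protein-coding genes lower and 368 higher, and 26 added noncoding transcripts lower and 25 higher. The median log2 difference of the elements was -0.0818 with TMM and 0.0349 with total counts.

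Transposable elements took 0.403% ± 0.0347 of counts in sln, 0.395% ± 0.0312 in mbd5 mbd6 and 0.292% ± 0.0162 in wild-type libraries (SD, n = 5 each). The sln minus mbd5 mbd6 difference was 0.00794 percentage points (two-sided exact permutation test within batches, p = 0.55, smallest possible 0.0167). It was 0.00164 points in batch 1 and 0.0121 in batch 2. Taken over TMM effective library sizes, the difference was -0.0208 points (same exact test, p = 0.0167). In bulk RNA, fewer cells of a type and less RNA per cell cannot be told apart.

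The wild-type libraries placed each difference. Against wild-type, 569 features were higher in sln (4.70% of those tested) and 492 in mbd5 mbd6 (4.06%), while 195 were lower in sln (1.61%) and 171 in mbd5 mbd6 (1.41%). Both contrasts share the wild-type libraries. Of the 492 higher in mbd5 mbd6, 123 were lower in sln than in mbd5 mbd6, 8 were higher and 361 were not called directly. Of the 569 higher in sln, 57 were higher than in mbd5 mbd6, 65 were lower and 447 were not called. The direct contrast called 2.06% of all tested features lower and 1.28% higher in sln. It uses the same mutant libraries that picked each set. Chance highs in those libraries push the 492 toward lower in sln and the 569 toward higher in sln. A feature was counted as depending on the proteins missing in 1 mutant and not on those missing in the other only where the direct contrast was called too. The word names this pattern of calls only. Other differences between the mutant lines cannot be told apart from loss of the proteins. A miss against wild-type does not show that a feature was equal to wild-type. Most features named below were picked among those whose sln and mbd5 mbd6 libraries did not overlap. For them, that lack of overlap is not a result.

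The class that rose in mbd5 mbd6, was not called in sln and was lower in sln than in mbd5 mbd6 held 56 features: 34 protein-coding genes, 9 added coding and 7 added noncoding transcripts and 3 transposable elements among them. The 56 include the 7 called genes of a run of neighbours on chromosome 4, which is described below. The element AT2TE03160 had 0 counts in all sln libraries, against 2.55, 1.68, 2.17, 2.94 and 3.09 CPM in the mbd5 mbd6 libraries, and 0 counts in all wild-type libraries. With 3 counts over the group as the limit that 0 allows, it was at least 72.6-fold lower in sln (0 against 170 counts). AT5G15360, a gene of an uncharacterized protein, had 1 count in sln and 120 in mbd5 mbd6 libraries, a ratio of 154 in favour of mbd5 mbd6 (95% counting interval 27.1 to 6130), and 0 in wild-type.

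SYP122 (AT3G52400), whose protein takes part in secretion at the plasma membrane, had 0.0656, 0, 0.218, 0.0675 and 0.144 CPM in the sln libraries, against 5.74, 6.63, 7.02, 8.42 and 9.1 CPM in the mbd5 mbd6 libraries. The wild-type libraries had 0.0787, 0.252, 0, 0.126 and 0.0705 CPM. Every mbd5 mbd6 value lay above every sln and wild-type value, and the log2 difference of sln minus mbd5 mbd6 was -6.04 ± 0.27 (SE, edgeR adjusted p = 1.06e-23). ATSYTF, a C2-domain protein gene, had 2.36, 2.3, 2.33, 3.11 and 2.88 CPM in sln, against 7.66, 7.66, 6.29, 8.42 and 9.38 CPM in mbd5 mbd6 libraries, with 2.08 to 3.38 CPM in wild-type. The sln and wild-type values overlapped, and no sln value reached the mbd5 mbd6 range (log2 difference -1.61 ± 0.13, SE).

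Among features with at least 1 CPM and groups that do not overlap, the largest differences of this class also took in 4 further features. AT3G43430, a RING/U-box protein gene, averaged 0.438 ± 0.119 CPM in sln, 1.59 ± 0.335 in mbd5 mbd6 and 0.463 ± 0.262 in wild-type libraries (SD, n = 5 each). The added transcript novel_Chr3_noncoding_1164 averaged 70.3 ± 6.44, 211 ± 9.28 and 66.6 ± 5.9 CPM in that order. The added transcripts novel_Chr2_noncoding_194 and novel_Chr3_coding_182 had log2 differences of -4.53 ± 0.43 and -1.85 ± 0.30 (SE). Named genes of smaller difference were G3Pp2, of the glycerol-3-phosphate permease family, at -0.96 ± 0.18, and BGLU21, of the beta-glucosidases, at -0.65 ± 0.13. In all 6, the sln libraries lay below the mbd5 mbd6 libraries, which was a condition of their being named.

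The opposite class, which rose in sln, was not called in mbd5 mbd6 and was higher in sln than in mbd5 mbd6, held 47 features, 37 of them protein-coding genes and 1 a transposable element. AT4G11440, a mitochondrial substrate carrier family gene, had 2.43, 2.69, 2.62, 3.44 and 3.75 CPM in the sln libraries, against 0.957, 0.56, 0.619, 0.89 and 0.441 CPM in the mbd5 mbd6 libraries and 0.252 to 0.494 CPM in wild-type. The sln values lay above all others, with a log2 difference of 2.15 ± 0.21 (SE, edgeR adjusted p = 8.8e-11). ACS6 (AT4G11280) had 10.8, 10.4, 11.4, 15.3 and 13.5 CPM in sln, against 6.14, 3.83, 2.99, 3.28 and 3.64 CPM in mbd5 mbd6 and 2.88 to 5.27 CPM in wild-type libraries. Library 1 was the highest of the mbd5 mbd6 values, and no mbd5 mbd6 value reached the sln range (1.64 ± 0.16, SE).

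**Figure D2:**
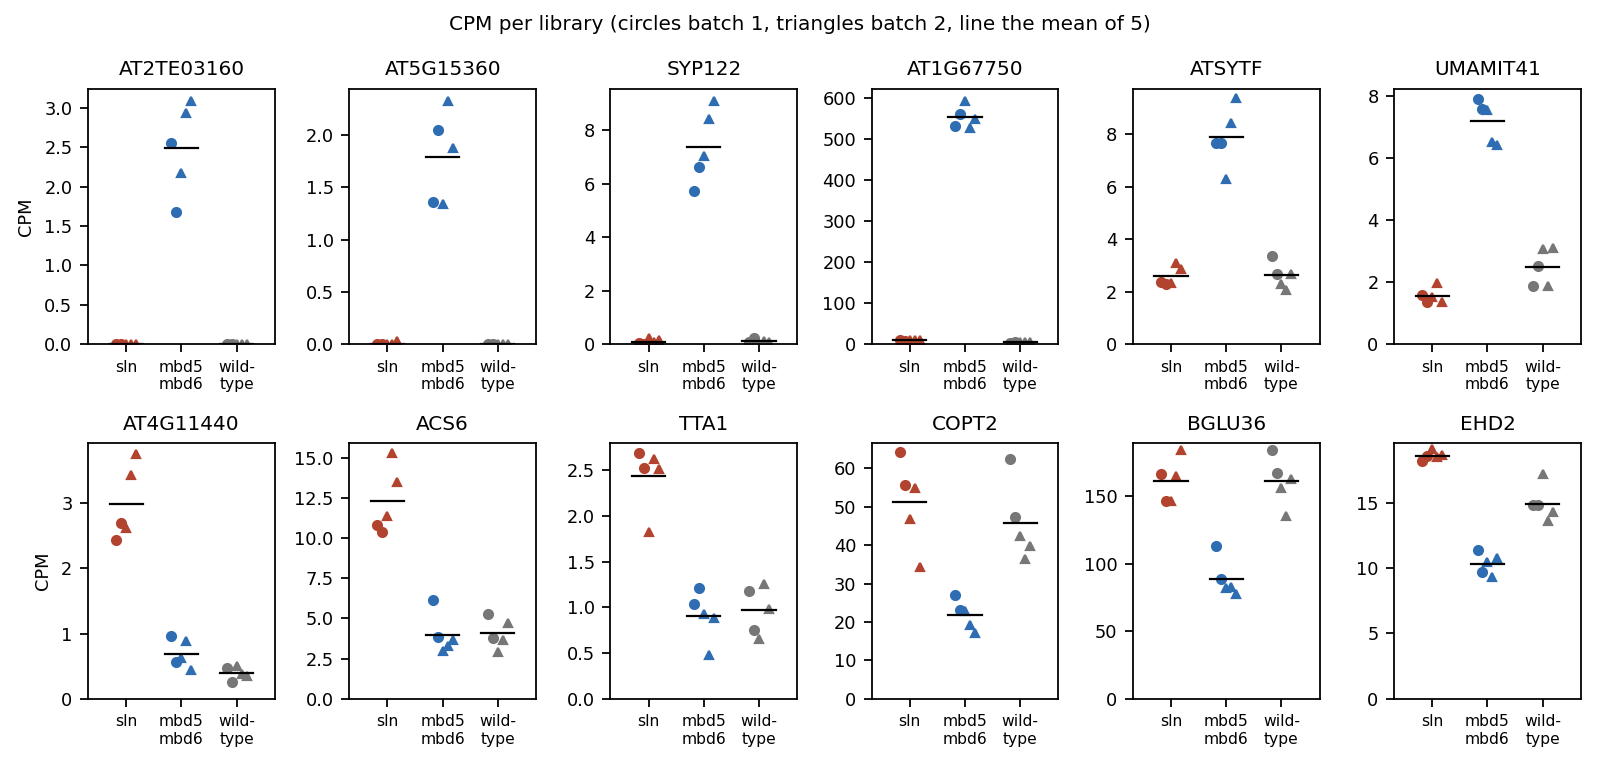
CPM in each library (circles batch 1, triangles batch 2; line, mean of 5) for 12 features in sln, mbd5 mbd6 and wild-type. In the upper row the mbd5 mbd6 points lie above all sln points. In the lower row the sln points lie above all mbd5 mbd6 points, ACS6 among them with 10.4 CPM or more against 6.14 CPM or less. Groups that do not overlap were a condition for choosing these features.

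TTA1, an OBERON-like PHD finger gene, had 2.69, 2.53, 1.82, 2.63 and 2.52 CPM in sln, against 1.04, 1.21, 0.929, 0.479 and 0.883 CPM in mbd5 mbd6 libraries, and 0.659 to 1.26 CPM in wild-type. Its sln library 3 was low, and groups that do not overlap were a condition of its choice. PUM16, a pumilio family RNA-binding protein gene, averaged 6.78 ± 1.24 CPM in sln, 3.34 ± 0.522 in mbd5 mbd6 and 4.12 ± 0.719 in wild-type libraries (SD, n = 5 each). The element AT1TE65385 averaged 2.12 ± 0.353, 0.754 ± 0.214 and 1.04 ± 0.18 CPM, and the added transcript novel_Chr5_noncoding_104 averaged 14.6 ± 0.967, 5.77 ± 0.997 and 4.02 ± 2.44 CPM. Other members were the peroxidase gene AT5G40153 (1.61 ± 0.30, log2 ± SE), the mevalonate/galactokinase family gene AT3G42850 (0.98 ± 0.21) and PMEI2, a pectin methylesterase inhibitor gene (0.87 ± 0.24, adjusted p = 0.0318 by edgeR and 0.147 by DESeq2). The class shrank to 16 features with DESeq2 and to 18 without sln library 5, and grew to 152 with total counts as the scaling.

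A larger group rose in both mutants but less in sln: 65 features, 18 of them transposable elements, 22 added noncoding transcripts, 8 pseudogenes and 11 protein-coding genes. AT1G67750 had 10.4, 8.55, 10.9, 10.3 and 9.22 CPM in the sln libraries, against 532, 561, 593, 527 and 549 CPM in the mbd5 mbd6 libraries and 2.91 to 5.64 CPM in wild-type. The groups did not overlap, and the difference was -5.81 ± 0.07 (log2 ± SE, edgeR adjusted p = 2.21e-45). The element AT3TE51735 had 6.43, 9.27, 8.51, 9.59 and 7.53 CPM in sln, against 47.5, 47.8, 43.4, 40.4 and 42.6 CPM in mbd5 mbd6 libraries, and at most 0.282 CPM in wild-type. FWA, a homeodomain gene silenced by methylation of its promoter repeats, averaged 6.07 ± 0.848 CPM in sln, 8.55 ± 0.875 in mbd5 mbd6 and 0.605 ± 0.245 in wild-type libraries (SD, n = 5 each; log2 difference -0.49, edgeR adjusted p = 0.00225). Here the mutants differed in size and both stood above wild-type.

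Further features of this group had little or no signal in wild-type. The pseudogene AT2G11170 had 20 counts in sln and 230 in mbd5 mbd6 libraries against 0 in wild-type, and novel_Chr3_noncoding_833 had 115 and 608 against 0. The added transcripts novel_Chr5_noncoding_280 (2.36 CPM in sln, 11.5 in mbd5 mbd6), novel_Chr2_noncoding_224 (0.221 and 1.79 CPM) and novel_Chr1_noncoding_516 (0.189 and 1.27 CPM) were lower in sln as well. Only 8 features rose in both mutants and were higher in sln, none of them a protein-coding gene. Among those, AT2TE12030 averaged 1.16 ± 0.252 CPM in sln and 0.298 ± 0.145 in mbd5 mbd6, novel_Chr5_noncoding_536 1.86 ± 0.0599 and 0.505 ± 0.168, novel_Chr4_noncoding_299 4.84 ± 0.848 and 1.53 ± 0.277, and the pseudogene AT1G43270 2.4 ± 0.621 and 0.896 ± 0.242 CPM (SD, n = 5 each).

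Another 254 features were higher than wild-type in both mutants with no call between them. NAC105, a NAC transcription factor gene, averaged 25.8 ± 1.65 CPM in sln, 27 ± 2.7 in mbd5 mbd6 and 5.94 ± 0.7 in wild-type libraries (SD, n = 5 each), with adjusted p = 0.718 by edgeR between the mutants. AT3G31470 averaged 119 ± 6.4, 112 ± 3.96 and 6.34 ± 1.74 CPM in that order (edgeR adjusted p = 0.425).

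A few features moved in opposite directions from wild-type. UMAMIT41, an EamA-like transporter gene, had 1.58, 1.35, 1.53, 1.96 and 1.37 CPM in sln, against 7.9, 7.57, 7.53, 6.5 and 6.4 CPM in mbd5 mbd6 and 1.89 to 3.1 CPM in wild-type libraries. It was called lower in sln and higher in mbd5 mbd6, as was AT1G62760, an invertase/pectin methylesterase inhibitor family gene. EHD2, an endocytosis protein gene, averaged 18.6 ± 0.338 CPM in sln, 10.3 ± 0.837 in mbd5 mbd6 and 14.9 ± 1.36 in wild-type libraries (SD, n = 5 each). All wild-type values of EHD2 lay between those of the mutants; the element AT4TE13150 was the other feature called higher in sln and lower in mbd5 mbd6.

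Among transcripts that fell, 37 were lower in mbd5 mbd6 than in wild-type, not called in sln and higher in sln than in mbd5 mbd6, 27 of them protein-coding. COPT2, a copper transporter gene, had 64.3, 55.8, 46.8, 55 and 34.4 CPM in sln, against 27, 23.1, 22.9, 19.2 and 17.1 CPM in mbd5 mbd6 and 36.4 to 62.5 CPM in wild-type libraries. The sln range overlapped wild-type and stood above mbd5 mbd6 (1.23 ± 0.18, log2 ± SE). BGLU36, a beta-glucosidase gene, averaged 162 ± 16 CPM in sln, 88.7 ± 14.2 in mbd5 mbd6 and 161 ± 17.9 in wild-type libraries (SD, n = 5 each). UMAMIT13 (0.88 ± 0.16) and the pseudogene AT5G26582 (1.22 ± 0.22) were of the same class. The class lower in sln, not called in mbd5 mbd6 and lower in sln than in mbd5 mbd6 held 28 features, SLN itself among them. PnsL3, a plastid NDH subunit gene, averaged 0.268 ± 0.204 CPM in sln and 1.07 ± 0.214 in mbd5 mbd6 libraries. LLG3, a co-receptor gene of the pollen tube, averaged 236 ± 17.1 and 267 ± 13.2 CPM (edgeR adjusted p = 0.0475, and 0.283 with total counts).

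The acd genotypes, which share no libraries with either mutant, stood nearer to mbd5 mbd6 for some of these features and not for others. AT1G67750 averaged 662 CPM in acd15.5, 728 in acd21.4, 673 in acd15.5 acd21.4 and 623 in acd15.5 acd21.4 sln. SYP122 averaged 12.8, 13.5, 15.4 and 10.9 CPM in that order. AT5G15360 averaged 0.217, 0.175, 3.22 and 0.232 CPM, high in acd15.5 acd21.4 alone among the 4. ACS6 averaged 6.21, 6.36, 3.16 and 5.82 CPM, below the 12.3 CPM of sln in all 4. AT4G11440 averaged 1.92, 1.6, 1.27 and 3.07 CPM. PUM16 averaged 6.61, 6.5, 8.09 and 5.68 CPM, against 6.78 CPM in sln and 3.34 CPM in mbd5 mbd6. These levels were not tested against sln or mbd5 mbd6.

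**Figure D3:**
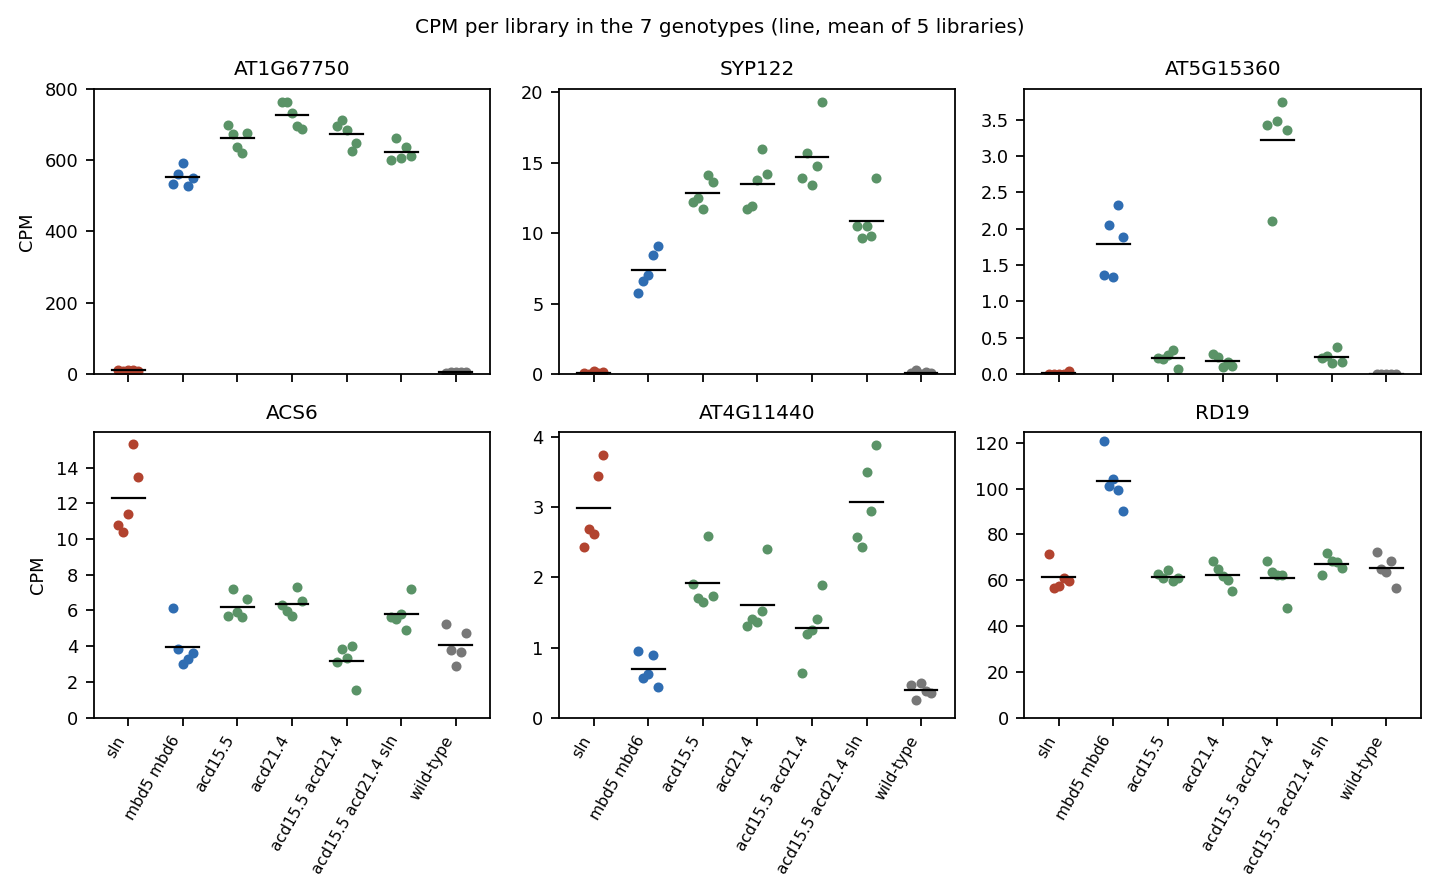
CPM in each library of 7 genotypes (line, mean of 5) for 6 genes. AT1G67750 and SYP122 are high in every mutant shown except sln, ACS6 is highest in sln, and RD19 is highest in mbd5 mbd6.

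Neighbouring genes on chromosome 4 were lower together in sln, in a run chosen after its values were seen. A run was at least 4 called genes of 1 direction, each within 100000 bases of the next. It ended at called genes, so the choice set its share of calls in part. Over all tested features, 2.06% were lower in sln than in mbd5 mbd6. Of 8 tested genes between 18209399 and 18248805 (TAIR10.1), 7 were lower in sln than in mbd5 mbd6, with a median log2 difference of -0.555 (-0.451 with total counts). The same number was higher in mbd5 mbd6 than in wild-type and none was called in sln against wild-type. RD19, a papain-like cysteine protease gene, had 71.3, 56.5, 57.6, 61 and 59.7 CPM in sln, against 121, 101, 104, 99.2 and 90.4 CPM in mbd5 mbd6 and 56.4 to 72.5 CPM in wild-type libraries. VHA-A3, a vacuolar proton pump subunit gene, averaged 300 ± 37.2 CPM in sln, 469 ± 44.7 in mbd5 mbd6 and 326 ± 25.8 in wild-type libraries (SD, n = 5 each). In acd15.5, acd21.4, acd15.5 acd21.4 and acd15.5 acd21.4 sln, RD19 averaged 61.6, 62.1, 60.9 and 67.2 CPM. The pollen tube receptor kinase gene AT4G39110 (BUPS1; -0.56 ± 0.07, log2 ± SE) and SEC14 (-0.54 ± 0.05) were members. None of 8 flanking tested genes was called between sln and mbd5 mbd6. The flanks lie within 100000 bases of the run, so the definition would have joined to it any flanking gene called lower. The absence of lower calls there is therefore not a result. Of the flanking genes 1, the kinesin gene AT4G39050, was higher in mbd5 mbd6 than in wild-type (0.33, log2). Genomic DNA was not analysed here, and a cause was not tested.

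**Figure D4:**
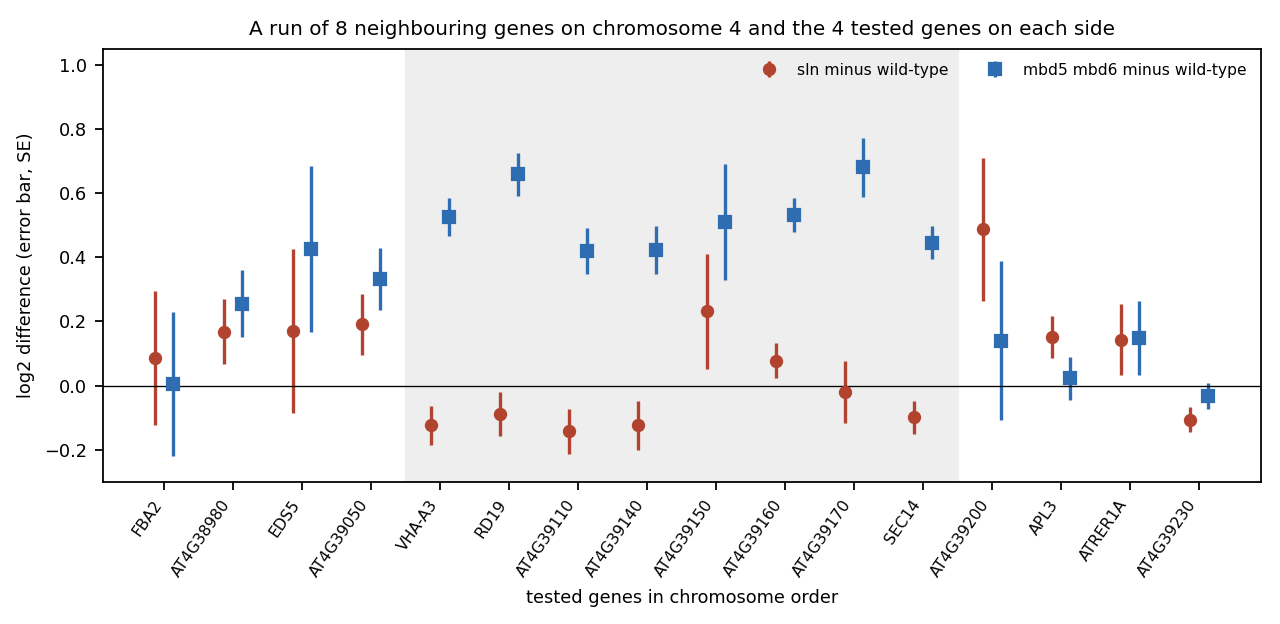
Log2 difference (error bar, SE) of sln minus wild-type and mbd5 mbd6 minus wild-type for 16 tested genes in chromosome order; grey marks the run of 8. Within it the mbd5 mbd6 points all lie above 0 and above the sln points.

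MBD6 lies in a second run, on chromosome 5 from 23914069 to 24007844, also chosen after its values were seen. There 4 of 17 tested genes were higher in sln than in mbd5 mbd6, beside 1.28% of all tested features. A run needed at least 4 called genes and ended at called genes, so the choice set this share in part. MBD6, a targeted gene, is 1 of the 4. These were PUM16, MBD6, its neighbour AT5G59390 and BOA. Against wild-type, MBD6 and AT5G59390 were called lower in mbd5 mbd6 alone, and PUM16 was called higher in sln alone. BOA was called against wild-type in neither mutant. AT5G59390, an XH/XS domain gene, averaged 0.929 CPM in sln, 0.171 in mbd5 mbd6 and 0.912 in wild-type libraries.

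Of 139 tested members of the gene lists for pathways and cell types, 6 were called (4.32%), beside 404 of 12106 features in all (3.34%), a share near the background. MBD6 and MBD10 (0.948 ± 0.164 CPM in sln, 0.467 ± 0.213 in mbd5 mbd6, SD, n = 5 each; adjusted p = 0.0412 by edgeR and 0.111 by DESeq2) were higher in sln, while SLN, BUPS1, LLG3 and AT1G67750 were lower. Of 32 DNA methylation genes listed, 15 passed the filter. None of the 15 was called by edgeR, and their median log2 difference was 0.0752, beside 0.0133 over all features. MET1, the maintenance methyltransferase, averaged 76 CPM in sln and 76.6 in mbd5 mbd6 libraries. ROS1, a DNA demethylase gene, averaged 1.25 ± 0.329 CPM in sln, 1.71 ± 0.313 in mbd5 mbd6 and 0.715 ± 0.123 in wild-type libraries (SD, n = 5 each), called against wild-type in both but not between the mutants. Of 35 heat shock and chaperone genes listed, 22 passed the filter. None of the 22 was called by edgeR, between the mutants or against wild-type. Their summed level was 172 to 210 CPM in sln, 163 to 228 in mbd5 mbd6 and 183 to 333 in wild-type libraries, where library 4 stood apart at 333 and the others reached at most 229 CPM.

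All 6 tested stress and jasmonate genes had positive differences, with a median of 0.546, and none was called. Against wild-type, 3 of the 6 were called higher in sln (ZAT12, LOX3 and OPR3), beside 4.70% of all features, and 0 of the 6 in mbd5 mbd6, beside 4.06%. These counts do not show that the mutants differed: OPR3, the largest difference between them, stood at 1.27 ± 0.59 (log2 ± SE, edgeR adjusted p = 0.25). Of 13 photosynthesis genes 12 were positive, with a median of 0.537 and no call; leaf markers, none of 7 at 0, summed to a median of 21.9 CPM in sln (9.66 to 24.1), 12 in mbd5 mbd6 (4.96 to 27.6) and 10.7 in wild-type libraries (3.59 to 28.6). The part of leaf RNA in the stress and photosynthesis values was not tested. None of 14 sperm cell genes was called (median 0.000248). Of 40 vegetative cell genes 9 were positive with TMM and 25 with total counts. All 8 pectin enzyme genes were negative with TMM and 4 were positive with total counts. The other lists (demethylation, small RNA silencing and DNA damage) had no call among 4, 2 and 6 tested members, and no tapetum gene passed the filter.

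**Figure D5:**
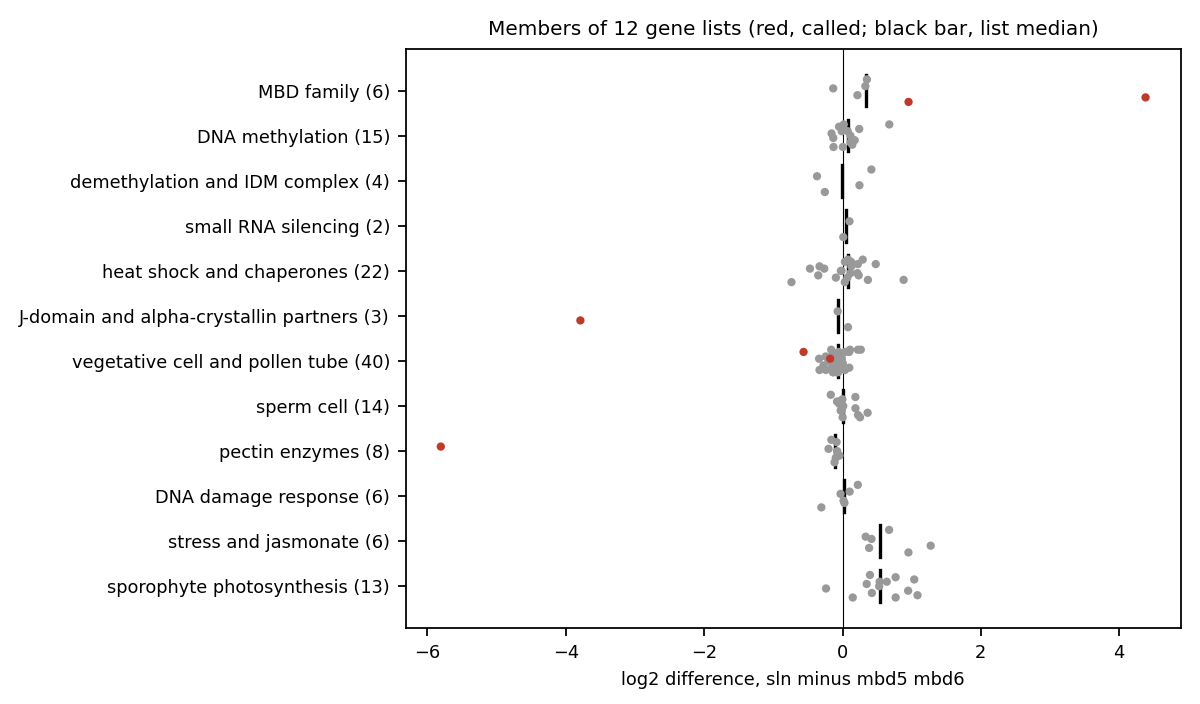
Log2 difference of sln minus mbd5 mbd6 for each tested member of 12 gene lists (tested members in parentheses; red, called; black bar, list median). The 6 called members are MBD6, MBD10, SLN, BUPS1, LLG3 and AT1G67750.

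The contrast was also set side by side between batches, which in mbd5 mbd6 may also be a contrast of lines. The interaction of batch with sln minus mbd5 mbd6 was called for 0 of 12106 features (0% of those tested) by edgeR, with 974 at an unadjusted p under 0.05. Chance alone would on average put a share of 0.05 there, which is fewer features than 974. With 2 libraries per genotype in batch 1, the lack of a call does not show that the batches were equal. Of the 404 called features, 391 had the same sign in both batches. They were called from both batches together, so the choice itself favoured a same sign. The batch 1 contrast called 58 features and the batch 2 contrast 719, of which 58 were called in both.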

How the data were processed

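Read counts per feature, 1 table per library, were deposited by the authors and used as given. The labels state poly(A) RNA from mature pollen, DNase I treatment and a stranded Illumina mRNA kit. The submitters' processing notes name Trim Galore, STAR, HTSeq, deepTools and TAIR10, without versions. The tables list 66429 features, including added transcripts with no coordinates here. Reads in no feature stayed out of library sizes. They were 0.369 to 0.951% in sln, mbd5 mbd6 and wild-type libraries, and 0.217 to 0.999% over all 35 libraries.

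Counts were tested with edgeR 4.0.16 (R 4.3.3, limma 3.58.1): filterByExpr with a minimum count of 10 kept 12106 features, TMM scaled the libraries, and 1 quasi-likelihood model of all 35 libraries held genotype and batch. CPM are counts per 1000000 counts of tested features after TMM. Adjusted p-values are Benjamini-Hochberg over all 12106. Counts were also simulated without a batch effect, with changes only in features of at least 1 CPM. On these the test recovered 100% of features changed by -2 on the log2 scale and 48.5% of those changed by -0.5. It made 7 false calls among 11876 features tested. DESeq2 1.42.0 and other settings served as alternatives; Python 3.11.15 read the tables. Positions, bases and most gene symbols come from RefSeq TAIR10.1; the names SLN (AT5G37380) and BUPS1 (AT4G39110) are not in it and are given from general knowledge.

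Groups came from the labels' genotypes. The members and gene lists were chosen with earlier results of these data known. Named features were the targeted genes, up to 4 called members of each list and 6 features known from earlier results. Added to these were the 12 largest called differences in each direction and the 8 largest in each class that depends on 1 mutant's proteins. The 8 largest symbol-bearing protein-coding genes in each direction were added too. All features added by size were picked only among those with at least 1 CPM in sln or mbd5 mbd6. Their sln and mbd5 mbd6 groups also had to be free of overlap. Genes of the chromosome runs, and members named within lists without a call, were chosen after their values were seen.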

Additional observations from a re-analysis of the deposited data

Results flagged for a closer look

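Within each group of 5 libraries, the named features and the library totals were searched for a library far from the other 4 (gap over range above 0.71). Such a library was found in 6 of 151 groups, and chance alone gives about 1 in 20. The sln library 5 held 22208090 counts, against 13167806 to 15272287 in the others. In sln library 3, novel_Chr5_noncoding_536 stood at 1.96 CPM, against 1.82 to 1.84 in the other sln libraries, and TTA1 at 1.82 CPM, against 2.52 to 2.69. ACS6 stood at 6.14 CPM in mbd5 mbd6 library 1, against 2.99 to 3.83 in the others. In wild-type, BGLU21 stood at 4.44 CPM in library 5, against 3.1 to 3.41, and FWA at 1.02 CPM in library 1, against 0.412 to 0.587.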

How the results depend on the processing

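The number of features higher in sln than in mbd5 mbd6 (155) was 90 with DESeq2, 16 in batch 1 alone, 30 with at least 2-fold and 75 to 225 when 1 library was left out (75 without sln 5, 77, 94 and 95 without mbd5 mbd6 3, 4 and 5). The number of features lower in sln than in mbd5 mbd6 (249) was 158 without a batch term, 38 in batch 1, 63 with at least 2-fold and 133 to 336 with 1 library left out (155 and 133 without sln 4 and 5, 144 and 152 without mbd5 mbd6 3 and 4). The class of 56 features called higher in mbd5 mbd6 and not in sln was 18 in batch 1, 18 with at least 2-fold and 41 to 76 with 1 library left out. The class of 47 features called higher in sln and not in mbd5 mbd6 was 71 with no low-count filter, 30 with 15 libraries in the fit, 16 with DESeq2, 30 with no batch term, 7 in batch 1, 15 with at least 2-fold and 18 to 82 with 1 library left out (82 and 18 without sln 2 and 5, 27 and 29 without mbd5 mbd6 3 and 5). List members called (6) were 13 in batch 2 and 3 with at least 2-fold. The batch interaction (0) was 22 with no low-count filter and 0 to 2 with 1 library left out. The transposable element share difference turned to -0.0208 points over TMM sizes, and lay between -0.00426 and 0.0177 with 1 library left out.

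Settings chosen after seeing the data were total counts as the scaling, with 439 higher, 110 lower, 34 and 152 in the classes and 10 list members, and legacy dispersions, with 30 in the sln class. Beyond the scaling, the cause of these shifts was not tested.

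Whether replicate numbers pair the libraries was not settled. Same-numbered deviations from genotype and batch means correlated at -0.021 to 0.201 between sln and mbd5 mbd6. They correlated at -0.027 to 0.285 between sln and wild-type and -0.144 to 0.266 between mbd5 mbd6 and wild-type. Number 5 gave 0.201, 0.285 and 0.266. Numbers 1 and 2, the only libraries of batch 1, mirror each other, so their correlations are the same by construction. No sln library had its own number as best partner, in a search that crossed batches. With replicate number as a block, 183 features were higher and 289 lower, the classes held 67 and 55, 8 list members were called, and the element share difference was 0.00794 points (exact p = 0.25). Of the 47 named features, 14 were not tested at a minimum count of 30 and 1 had no DESeq2 value. Among those tested, and outside batch 1 alone, PMEI2, MBD10 and LLG3 lost their call under some setting; batch 1 alone left 27 of 47 on the same side of the threshold. Features with few counts are limited by depth.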

Other observations

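The differences varied with transcript level. The median log2 difference of sln minus mbd5 mbd6 was 0.0871 for 2155 features under 1 CPM, 0.0416 for 5354 from 1 to 10 CPM, 0.00539 for 3354 from 10 to 100 CPM, -0.0461 for 1000 from 100 to 1000 CPM and -0.119 for 243 at 1000 CPM and over. Of the features from 100 to 1000 CPM, 6 were called higher and 50 lower. Without sln library 5 the medians were 0.0543, 0.0246, 0.00598, -0.0204 and -0.0533 in the same order.

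Upstream windows of the class called higher in mbd5 mbd6 and not in sln held CG in 95.7% of 23 genes, with a median of 5. Those of the class called higher in sln and not in mbd5 mbd6 held CG in 100% of 28 genes, with a median of 4.5.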
